A study of Mus musculus with 4 samples.

Results

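The expression of 8 transcription factor genes of differentiating retinal ganglion cells (RGCs), *Pou4f1*, *Pou4f2*, *Pou4f3*, *Isl1*, *Isl2*, *Barhl2*, *Eomes* and *Tbr1*, was compared between wildtype and *Nrf1*-mutant mouse retinas at E13.5. These genes were taken by symbol, for their known roles in RGCs, from the 24062 genes of the deposited count table. All 8 were in the table and passed the expression filter. Both genotypes are on a mixed C57BL/6 and 129 background. In the mutant, labelled Nrf1-CKO and described in the methods of the study as *Nrf1* f/f;Six3-Cre, a Six3-Cre transgene removes exon 4 of the floxed *Nrf1* alleles in retinal progenitor cells. The control is labelled wild type, with no allele or transgene named. RNA came from retinas pooled over littermates, and each genotype has 2 libraries. Since no label says that these came from separate pools, p-values measure only the spread between libraries, which may be technical. *Nrf1* itself had 9052 and 7789 reads in wildtype replicates 1 and 2 and 8594 and 8284 reads in mutant replicates 1 and 2. These counts cover the whole gene and not exon 4 alone, so they do not check the genotype.

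RGCs are the output neurons of the retina, whose axons form the optic nerve, and they are born early in retinal development. Progenitor cells that express *Atoh7* become competent for the RGC fate, and some of them then turn on *Pou4f2* and *Isl1*, whose proteins act together on the genes of RGC differentiation. *Pou4f1* and *Pou4f3* are close relatives of *Pou4f2* that follow it in RGCs. *Isl2*, *Barhl2*, *Eomes* and *Tbr1* act in subsets of RGCs, and *Isl1* and *Barhl2* are also used by amacrine cells. Nrf1 is a regulator of nuclear genes for mitochondrial function.

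The libraries held between 74577660 and 85933945 reads counted on genes, and levels are given as CPM (reads of a gene relative to all reads on genes in the library) after scaling with factors between 0.992 and 1.02. Summed over 13 retinal progenitor genes, the level was 8796 and 9452 CPM in the wildtype libraries and 6924 and 7465 CPM in the mutant libraries. Both mutant sums were lower, mostly through *Ccnd1* and *Fgf15*, while 10 of the 13 genes were not called and the median log2 fold change was -0.12. Several markers of tissue next to the retina were higher in the mutant, where 12.8% of all tested genes were called higher and 8.04% lower. All 10 lens markers were called higher, with sums of 137 and 379 CPM in the wildtype and 8025 and 3247 CPM in the mutant libraries. All 7 macrophage markers were called higher as well, with sums of 61.6 to 66.8 CPM in the wildtype and 201 to 243 CPM in the mutant. Of the tested markers, 5 of 6 for pigment epithelium, 6 of 7 for mesenchyme, 4 of 6 for endothelium and 2 of 3 for erythroid cells were called higher, and 1 endothelial marker, *Kdr*, was called lower. The calls of the 8 genes were the same when these markers were left out of the scaling, and a further part of such tissue in the results was not tested.

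To show sequence at an annotated start of these genes, the 250 bases before the RefSeq start are printed for *Pou4f2* and *Isl1*, which had the highest levels, and for the T-box genes *Eomes* and *Tbr1*, which gave different results. They are RefSeq sequences of GRCm38.p6, 5′ to 3′ on the strand of the gene, and 7 of the 8 genes had an entry. *Pou4f2* (chr8:78436648-78436897) and *Isl1* (chr13:116309689-116309938) are read from the minus strand, and *Eomes* (chr9:118477939-118478188) and *Tbr1* (chr2:61804203-61804452) from the plus strand. The windows of *Tbr1* and *Isl2* lie inside the GENCODE spans of these genes, which begin farther upstream. Capitals mark matches, on either strand, to the E-box CAGCTG, to CCAAT, to the homeodomain core TAATTA and to TATATA.
Pou4f2: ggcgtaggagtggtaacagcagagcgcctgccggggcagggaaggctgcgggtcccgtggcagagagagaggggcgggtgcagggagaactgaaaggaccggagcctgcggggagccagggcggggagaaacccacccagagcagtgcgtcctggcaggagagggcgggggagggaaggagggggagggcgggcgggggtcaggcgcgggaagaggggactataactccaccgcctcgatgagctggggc
Isl1: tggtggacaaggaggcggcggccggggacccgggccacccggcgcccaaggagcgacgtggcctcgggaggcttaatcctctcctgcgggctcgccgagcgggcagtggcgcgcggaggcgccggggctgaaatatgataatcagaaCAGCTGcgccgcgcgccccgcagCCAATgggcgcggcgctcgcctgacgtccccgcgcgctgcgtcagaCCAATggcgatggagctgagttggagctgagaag
Eomes: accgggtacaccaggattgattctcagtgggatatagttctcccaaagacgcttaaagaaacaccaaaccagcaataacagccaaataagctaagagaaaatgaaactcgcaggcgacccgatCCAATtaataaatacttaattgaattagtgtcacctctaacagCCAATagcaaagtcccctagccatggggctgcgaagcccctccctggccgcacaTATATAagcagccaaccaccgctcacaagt
Tbr1: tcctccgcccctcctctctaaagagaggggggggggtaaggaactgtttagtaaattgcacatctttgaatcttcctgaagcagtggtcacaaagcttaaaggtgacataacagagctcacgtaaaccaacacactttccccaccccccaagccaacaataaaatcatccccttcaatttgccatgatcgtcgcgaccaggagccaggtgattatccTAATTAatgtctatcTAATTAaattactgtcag
The windows of *Pou4f1*, *Pou4f2*, *Isl1*, *Isl2* and *Barhl2* were rich in G and C, at 78.0%, 70.8%, 71.2%, 66.8% and 74.8%, and held 16 to 47 CpG. Those of *Eomes* and *Tbr1* had 46.4% and 45.2% G and C, with 8 and 5 CpG. Over 32851 windows of all genes the median was 52.4%, with 6 CpG. None of the 7 windows held the NRF1 core, which is GCGCA, any base and GCGC, and which 3.74% of all windows held. CCAAT stood 2 times each in the windows of *Isl1*, *Isl2* and *Eomes*, and in 33.9% of all windows. CAGCTG stood in those of *Pou4f1* and *Isl1* and in 13.0% of all windows. Of the 7 windows, TAATTA was found in that of *Tbr1*, with 2 copies, and TATATA in that of *Eomes*, against 4.84% and 5.25% of all windows. These are matches of letters, not binding sites.

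The levels of the genes in the wildtype retina spanned a wide range. Per kilobase of exon, *Pou4f2* had the highest level, 53.4 ± 0.729 CPM (SD, n = 2), followed by *Isl1* with 38.7 ± 2.39 CPM. *Barhl2* with 8.77 ± 0.0795 and *Pou4f1* with 8.06 ± 2.15 CPM per kilobase came next. The libraries of this pair overlapped, so the order of *Barhl2* and *Pou4f1* in the wildtype is not resolved. *Isl2* lay at 2.26 ± 0.397 CPM per kilobase. *Pou4f3* and *Eomes*, with 0.848 ± 0.263 and 0.652 ± 0.133 CPM per kilobase, also overlapped, and *Tbr1* was the lowest with 0.0688 ± 0.0174.

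In the mutant, *Pou4f2* and *Isl1* were again the highest, with 27.3 ± 3.31 and 14.99 ± 3.12 CPM per kilobase (SD, n = 2). *Barhl2*, at 4.43 ± 0.0535, lay above *Pou4f1*, at 2.26 ± 0.326, in both libraries, and *Isl2* was at 0.619 ± 0.150. At the low end, *Eomes* with 0.0943 ± 0.0387, *Pou4f3* with 0.0754 ± 0.0353 and *Tbr1* with 0.0659 ± 0.0216 CPM per kilobase overlapped one another. *Pou4f3* and *Eomes* had thus come down to the level of *Tbr1*, from which they were well apart in the wildtype.

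**Figure D1:**
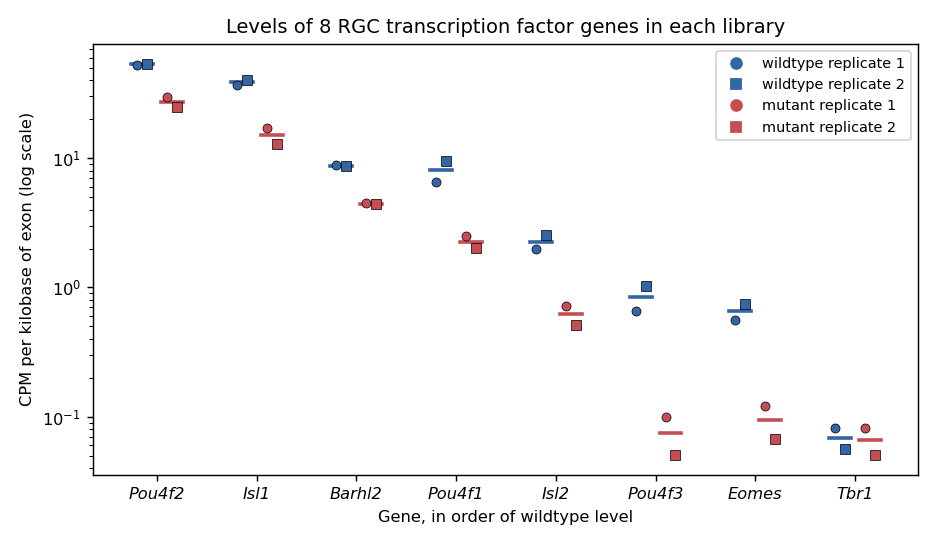
Level of each gene in each library, as CPM per kilobase of exon on a log axis, with circles for replicate 1, squares for replicate 2 and bars for the mean of 2 libraries. Mutant libraries lie below wildtype libraries for 7 genes, and for *Tbr1* the genotypes overlap between 0.0565 and 0.0812 CPM per kilobase.

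Of the 8 genes, 7 were called lower in the mutant and none higher by edgeR's quasi-likelihood test, with the thresholds of the study, which are a minimum fold of 1.4 and a maximum adjusted p of 0.2. Over all 15762 tested genes, 8.04% were called lower and 20.9% in either direction. The same 7 genes also passed with an adjusted p of at most 0.05, as did 6.59% of all genes on the lower side. In these 7, both mutant libraries lay below both wildtype libraries, which was so for 31.6% of all genes. Their decreases ran from 1.95-fold for *Pou4f2* to 11.1-fold for *Pou4f3*. The median log2 fold change was -1.60 over the 8 genes and 0.00073 over all tested genes. In whole retinas, fewer RGCs and less RNA per RGC cannot be told apart. The study had already listed *Pou4f1*, *Pou4f2*, *Isl1* and *Barhl2* from these same libraries, so their direction here is not independent evidence. Outside these libraries, the study reported by immunostaining few Isl1-positive cells in the mutant at an earlier stage. At a later stage it reported fewer Pou4f2-positive RGCs, and it measured its most affected genes by qRT-PCR.

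*Pou4f2*, the POU-domain factor whose onset marks newly formed RGCs, has 2 exons on chromosome 8 of GRCm38, from 78433010 to 78436645. It had 14842 and 12815 wildtype reads against 7897 and 6623 mutant reads, or 171 ± 2.33 and 87.6 ± 10.6 CPM (SD, n = 2). Both mutant libraries were below both wildtype libraries, which were nearly equal after scaling. The mutant level was 51.2% ± 6.20 of wildtype, with a log2 fold change of -0.97 ± 0.09 (SE, edgeR adjusted p = 0.000252). Here and below, the ± of a percentage is the SD of the mutant libraries over the wildtype mean. It leaves out the wildtype spread. By edgeR, the decreases of *Pou4f2* and *Barhl2* were the smallest among the 7 genes called. In the authors' normalized log2 values the difference of *Pou4f2* was -0.92, and the decreases of *Barhl2*, *Pou4f3*, *Isl2* and *Eomes* were smaller.

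*Pou4f1*, which also marks peripheral sensory neurons, lies on chromosome 14 from 104461676 to 104467999. It had 2677 and 3322 wildtype reads against 966 and 784 mutant reads, or 30.6 and 44.8 against 11.6 and 9.48 CPM. The genotypes were well apart, and the wildtype libraries differed more from each other than the mutant libraries did. The mutant held 28.01% ± 4.04 of the wildtype level, with a log2 fold change of -1.84 ± 0.18 (SE, edgeR adjusted p = 0.000261). The value was -2.08 without wildtype replicate 1 and -1.53 without wildtype replicate 2. In the authors' normalized log2 values the difference was -1.39.

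*Pou4f3*, on chromosome 18, was the least abundant of the POU4F genes and is otherwise known from the hair cells of the inner ear. It had 139 and 184 wildtype reads against 20 and 10 mutant reads, or 1.59, 2.48, 0.241 and 0.121 CPM. The genotypes did not overlap, although the mutant values rest on few reads. The mutant held 8.89% ± 4.17 of the wildtype level. The log2 fold change was -3.48 ± 0.51 (SE, edgeR adjusted p = 0.00147), the lowest estimate of the 8. In the authors' normalized log2 values, in which low counts are drawn together, the difference was -0.75.

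The makeup of the POU4F reads differed between the genotypes. *Pou4f2* gave 84.1% (95% Wilson interval 83.5 to 84.6) and 78.5% (77.9 to 79.1) of the reads of the 3 genes in the wildtype libraries. In the mutant libraries it gave 88.9% (88.2 to 89.5) and 89.3% (88.6 to 90.0). *Pou4f1* made up 15.2% and 20.4% in wildtype libraries against 10.9% and 10.6% in mutant ones, and *Pou4f3* 0.787% and 1.13% against 0.225% and 0.135%. Intervals cover counting error only, and the wildtype libraries differed by more than that. Reads that could not be placed uniquely were not counted on genes, which can affect stretches that the 3 genes have in common, and this was not tested.

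*Isl1*, the LIM homeodomain partner of POU4F2, lies on chromosome 13 from 116298281 to 116309689. It had 12824 and 11855 wildtype reads against 5657 and 4189 mutant reads, or 153 ± 9.48 and 59.4 ± 12.3 CPM (SD, n = 2). The genotypes did not overlap, and mutant replicate 2 was the lowest. The mutant held 38.8% ± 8.06 of the wildtype level, with a log2 fold change of -1.37 ± 0.13 (SE, edgeR adjusted p = 0.000233).

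*Isl2*, its relative on chromosome 9 from 55538672 to 55546180, is known from RGCs whose axons cross the midline. It had 381 and 414 wildtype reads against 132 and 93 mutant reads, or 4.35, 5.58, 1.59 and 1.12 CPM. Both mutant libraries were clearly lower. The mutant held 27.3% ± 6.62 of the wildtype level, with a log2 fold change of -1.87 ± 0.27 (SE, edgeR adjusted p = 0.00145), and the difference in the authors' normalized log2 values was -0.75. Of the reads of both *Isl* genes, *Isl2* gave 2.89% and 3.37% in wildtype libraries against 2.28% and 2.17% in mutant ones.

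*Barhl2*, a BarH-like homeodomain factor needed by RGCs and amacrine cells, lies on chromosome 5 from 106452523 to 106458166. It had 1788 and 1495 wildtype reads against 858 and 840 mutant reads, or 20.3 ± 0.184 and 10.2 ± 0.124 CPM (SD, n = 2). The replicates were almost equal within each genotype, and the genotypes were far apart. The mutant level was 50.5% ± 0.610 of wildtype, with a log2 fold change of -0.99 ± 0.11 (SE, edgeR adjusted p = 0.000384). Leaving out single libraries gave -0.998 to -0.973. In the authors' normalized log2 values the difference was -0.70, against -0.92 for *Pou4f2*.

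*Eomes*, a T-box factor known from the RGC types that include the melanopsin cells, lies on chromosome 9 from 118478212 to 118486132. It had 203 and 230 wildtype reads against 42 and 23 mutant reads, or 2.32, 3.10, 0.506 and 0.278 CPM. The mutant libraries were both far below the wildtype libraries. The mutant held 14.5% ± 5.94 of the wildtype level, with a log2 fold change of -2.78 ± 0.41 (SE, edgeR adjusted p = 0.00152). In the authors' normalized log2 values the difference was -0.76.

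*Tbr1*, the related T-box factor on chromosome 2 from 61802930 to 61814114, is known from other RGC types and from cortical neurons. It had 39 and 23 wildtype reads against 37 and 23 mutant reads, or 0.445, 0.310, 0.445 and 0.278 CPM. The genotypes overlapped. The log2 fold change was -0.07 with a standard error of 0.62 (adjusted p = 0.955, edgeR), and its sign turned with the library left out, from -0.44 to 0.23. Neither a decrease nor an increase was detected, and small changes were not detectable at this depth. Of 7 cortical and forebrain markers 4 passed the filter, with 1 called lower and none higher, and 3 were near 0, with *Neurod2* at 0 reads in all 4 libraries, *Neurod6* at 0 and 3 against 0 and 0, and *Emx1* at 0 and 8 against 1 and 1.

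**Figure D2:**
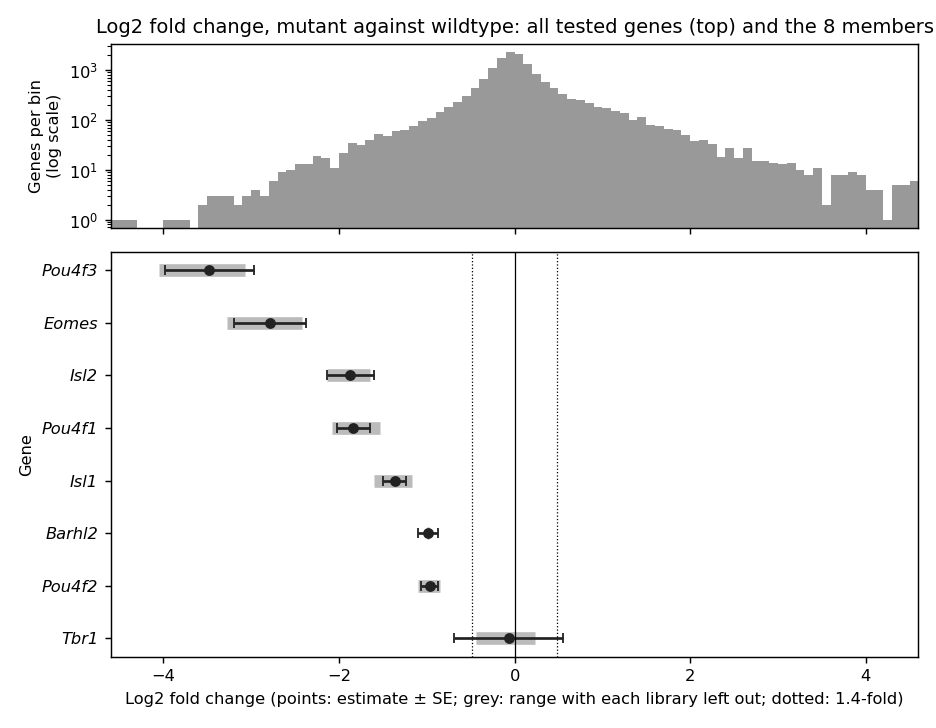
Log2 fold changes, mutant against wildtype, of all 15762 tested genes as a histogram (values past the axis in the end bins) and of the 8 genes below it, with standard errors as bars, the range with each library left out in grey and dotted lines at 1.4-fold. The estimates run from -3.48 for *Pou4f3* to -0.07 for *Tbr1*, and the median of all genes is 0.00073.

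To compare the genes with each other, ratios of their reads within each library were taken, which do not depend on scaling. For each 100 reads of *Pou4f2* there were 18.04 and 25.9 reads of *Pou4f1* in wildtype libraries against 12.2 and 11.8 in mutant ones, a log2 difference of -0.84. *Isl1* gave 86.4 and 92.5 reads per 100 of *Pou4f2* in wildtype libraries against 71.6 and 63.2 in mutant ones, a log2 difference of -0.41. Both ratios were lower in each mutant library than in each wildtype library. The differences were larger for *Eomes* to *Pou4f2*, at -1.85 (1.37 and 1.79 against 0.532 and 0.347 reads per 100), and for *Pou4f3* to *Pou4f2*, at -2.52 (0.937 and 1.44 against 0.253 and 0.151). *Isl2* to *Isl1* was lower by a log2 difference of -0.50, from 2.97 and 3.49 to 2.33 and 2.22 reads per 100. *Tbr1* gave 19.2 and 10 reads per 100 of *Eomes* in wildtype libraries against 88.1 and 100 in mutant ones, a log2 difference of 2.74. In all these pairs the genotypes did not overlap. *Barhl2* to *Pou4f2* was the exception, with 12.0 and 11.7 against 10.9 and 12.7 reads per 100 and a log2 difference of -0.01. Most pairs share *Pou4f2* and are not separate results, and the share of other gene pairs without overlap was not measured. In the mutant, *Tbr1* to *Eomes* rests on 37 and 23 reads of *Tbr1* against 42 and 23 of *Eomes*. With 2 libraries against 2, the exact two-sided permutation p cannot be below 0.333, so this test could not pass 0.05 for any ratio, and its p says nothing about whether the ratios differ. It was 0.333 for the 6 pairs without overlap and 1 for *Barhl2* to *Pou4f2*, or 0.389 and 1 with Benjamini-Hochberg adjustment over the 7 pairs.

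**Figure D3:**
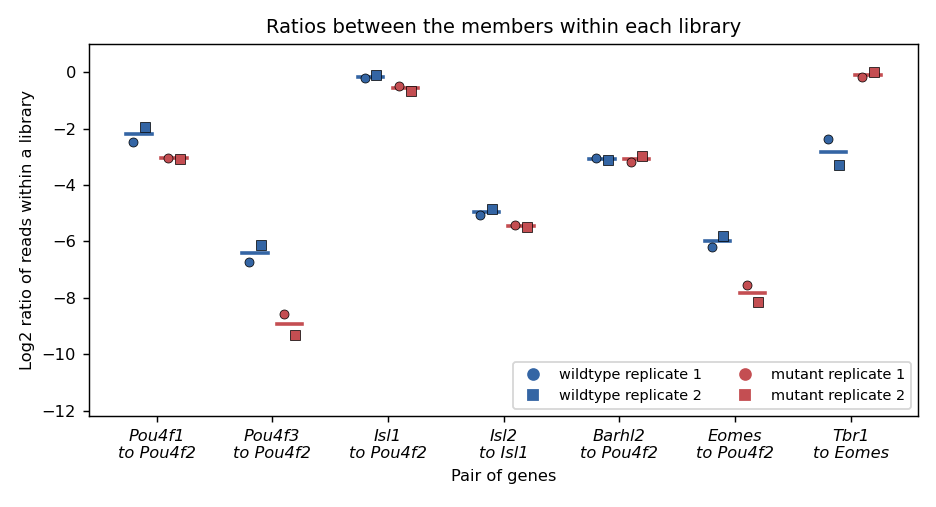
Log2 ratio of the reads of 2 genes in the same library, for 7 pairs, with circles for replicate 1 and squares for replicate 2. *Tbr1* to *Eomes* is higher in the mutant by 2.74, *Barhl2* to *Pou4f2* overlaps between the genotypes, and the other 5 ratios are lower in the mutant.

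The spread between replicates was shared by the genes. Mutant replicate 2 was below mutant replicate 1 in all 8 genes, in 22 of the 24 downstream RGC genes described below, and in 51.9% of all tested genes. Wildtype replicate 2 was above wildtype replicate 1 in 6 of the 8 genes, the exceptions being *Barhl2* and *Tbr1*. It was also above in 23 of those 24 downstream genes, and in 50.2% of all tested genes. This order of the replicates was thus not particular to the 8 genes. The lens markers also differed between the replicates, being higher in mutant replicate 1 and in wildtype replicate 2. Without mutant replicate 1, which had the highest lens level, the log2 fold changes were -1.10 for *Pou4f2*, -1.60 for *Isl1* and -4.05 for *Pou4f3*. Without mutant replicate 2 they were -0.85, -1.17 and -3.07, and all 7 genes were called lower in both cases.

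Upstream of these genes, *Atoh7*, the bHLH factor of RGC competence, was not called. It had 8203 and 9668 wildtype reads against 7183 and 7953 mutant reads, with a log2 fold change of -0.29 ± 0.14 (SE, edgeR adjusted p = 0.175). The genotypes overlapped. Without wildtype replicate 1 the value was -0.51, and the gene was then called lower, and without wildtype replicate 2 it was -0.03. *Sox11*, a SoxC factor that RGC formation needs, had 86686 and 75215 against 70345 and 65318 reads and a log2 fold change of -0.29 (adjusted p = 0.0291, edgeR), below the fold of 1.4. As a description chosen after the values were seen, there were 1.81 and 1.33 reads of *Pou4f2* for each read of *Atoh7* in wildtype libraries against 1.10 and 0.833 in mutant ones. For *Isl1* there were 1.56 and 1.23 against 0.788 and 0.527. Against the 24 downstream RGC genes described below, *Pou4f2* went the other way. For each 100 of their reads there were 6.04 and 5.44 reads of *Pou4f2* in wildtype libraries against 8.23 and 9.05 in mutant ones.

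Of 28 other transcription factors of RGC specification and subtypes, 15 were called lower and 2 higher, and their median was -0.64 on the log2 scale, where 8.04% and 12.8% of all genes were called lower and higher. With glmTreat, which tests against the 1.4-fold threshold, at an adjusted p of at most 0.05, 9 were called lower. The lowest of at least 5 CPM were *Myt1l*, a neuronal zinc finger factor, at -2.51 (standard error 0.28) and *Onecut3*, a cut homeodomain factor, at -2.16 (standard error 0.32). In the authors' normalized log2 values these differences were -1.38 and -1.11, and without mutant replicate 1 that of *Onecut3* was -2.85. *Onecut3* had 793 and 767 wildtype reads against 249 and 111 mutant reads. The 2 genes called higher were *Tbx20*, a T-box gene, with 1502 and 1002 against 2674 and 2717 reads and a log2 fold change of 1.08, and *Foxp2*, a forkhead factor of some RGC types, with 3585 and 2723 against 5619 and 5707 reads and 0.81. Thus not all transcription factors linked to RGCs moved in the direction of the *Pou4f* genes in whole retinas. Of 6 tested pigment epithelium markers, 5 were also called higher, with *Tyrp1* at 1292 and 882 against 2715 and 2652 reads. The cells that gave the reads of *Tbx20* and *Foxp2* were not tested.

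Downstream, 24 genes that are associated with POU4F2 and ISL1 or mark differentiated RGCs had 20 called lower and 2 higher, beside 8.04% and 12.8% of all genes, with a median of -1.67. *Mstn*, which encodes the secreted factor myostatin, fell by 2.99 on the log2 scale (standard error 0.30), from 797 and 822 to 140 and 70 reads. *Nrn1*, which encodes neuritin, a protein of neurite growth, fell by 2.84 (standard error 0.28), from 1183 and 1180 to 227 and 113 reads. *Opn4*, the melanopsin gene, went the other way, with 267 and 174 wildtype reads against 587 and 759 mutant reads and a log2 fold change of 1.59 ± 0.21 (SE, edgeR adjusted p = 0.000997). In the authors' normalized log2 values the differences of these 3 genes were -1.39, -1.54 and 0.80. The other gene called higher, *Thy1*, had 1 and 1 against 11 and 25 reads and is too low for a fold change, and *Ablim1* at -0.20 and *Rbpms* at -0.45 were not called. Several genes of this and the preceding list were chosen by the study on these libraries, so the counts are not independent evidence.

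**Figure D4:**
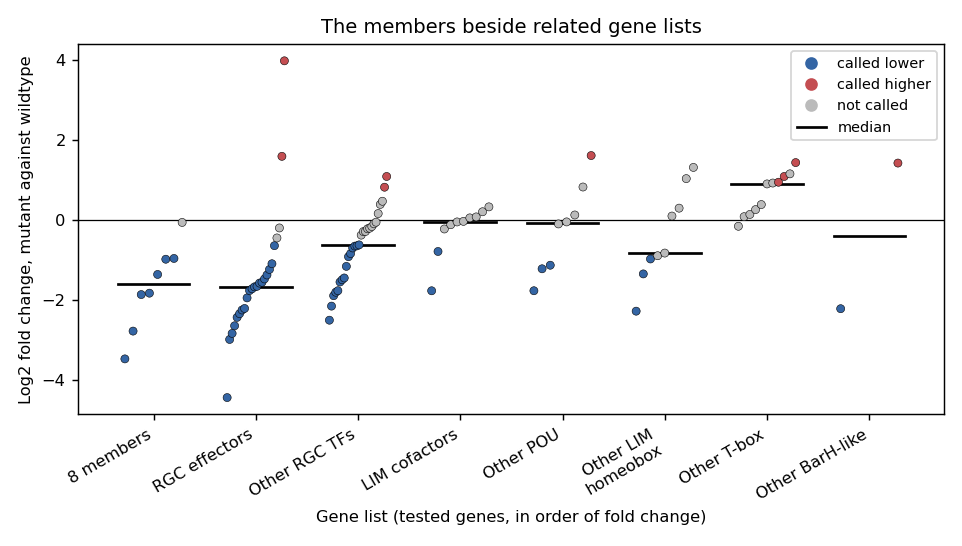
Log2 fold change of every tested gene in the lists of RGC genes, cofactors and related gene families, with genes called lower in blue, called higher in red and not called in grey, and a black line at each median. Of the 24 downstream genes 20 are called lower, of the 10 cofactors 2, and of the 11 tested T-box genes 3 are called higher, and the highest downstream point is *Thy1*, which rests on 1 read in each wildtype library.

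The cofactors of LIM homeodomain proteins, through which ISL1 forms complexes, were mostly not called. Of 10 genes 2 were called lower and none higher, beside 8.04% and 12.8% of all genes, with a median of -0.05. *Lmo1*, a LIM-only gene, fell by 0.79 on the log2 scale (standard error 0.15), from 922 and 951 to 565 and 552 reads, and *Lmo3* was called at 142 and 73 against 16 and 47 reads. With an adjusted p of at most 0.05, only 1 of these calls was left, and with glmTreat at that adjusted p 0 were left.

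The relatives of the 8 genes gave a mixed picture, beside 8.04% of all genes called lower and 12.8% called higher. Among 8 tested other POU genes, 3 were called lower, with *Pou3f1* at -1.23 and *Pou3f2* at -1.14 among them, and *Pou5f2*, with 24 and 35 against 138 and 50 reads, was called higher. That last call was lost without wildtype replicate 1, without mutant replicate 1, with an adjusted p of at most 0.05, with glmTreat and on the authors' normalized values. *Pou3f1* had 1813 and 1764 wildtype reads against 819 and 758 mutant reads. Among 9 tested LIM homeobox genes 3 were called lower, *Lhx1*, *Lhx3* and *Lhx4*, none of which reached 5 CPM. The number of LIM homeobox genes called lower was 1 with an adjusted p of at most 0.05, without wildtype replicate 1 or without mutant replicate 2. It was 0 on the authors' normalized values and 0 with glmTreat, edgeR's test against the 1.4-fold threshold, at an adjusted p of at most 0.05. In this family 1 gene was called higher without wildtype replicate 1 and with the replicate block. Of 11 tested other T-box genes, none was called lower, in contrast to *Eomes*, and 3 higher, *Tbx20*, *Tbx18* and *Tbx22*, with a median of 0.90. *Tbx18* and *Tbx22* had means of 1.08 and 0.893 CPM, and *Tbx1*, the median gene, 0.381 CPM. Of the genes of at least 5 CPM, *Tbx20* lay at 1.08, and *Tbx2*, *Tbx3*, *Tbx5* and *Mga* at 0.38, 0.26, 0.13 and -0.16 were not called. The T-box median was 0.24 without mutant replicate 1 and 0.44 without wildtype replicate 1. The number of T-box genes called higher was 2 without mutant replicate 1, with DESeq2, with library sizes only and with an adjusted p of at most 0.05, and 1 on the authors' normalized values and with glmTreat at that adjusted p. Of the BarH-like genes tested, *Barhl1* was called lower with 32 and 28 against 13 and 0 reads, and *Barx2* higher with 49 and 43 against 163 and 90 reads. The call of *Barhl1* was lost without wildtype replicate 1, without wildtype replicate 2, without mutant replicate 2, with DESeq2, with either other filter on low counts, with an adjusted p of at most 0.05, with glmTreat and on the authors' normalized values. The call of *Barx2* was lost without mutant replicate 1, with glmTreat and on the authors' normalized values.

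Other retinal cell types were examined by their markers, since some of the 8 genes are not limited to RGCs, and their counts stand beside 8.04% of all genes called lower and 12.8% called higher. Of 13 progenitor markers 3 were called lower, *Ccnd1*, *Hes5* and *Fgf15*, and none higher. Of 6 photoreceptor precursor markers *Crx* and *Rxrg* were called lower. Of 7 amacrine and horizontal cell markers, 2 were called lower, *Ptf1a* and *Lhx1*, and 2 higher, *Prox1* and *Tfap2a*. Their sum was 357 and 378 CPM in the wildtype libraries and 356 and 376 CPM in the mutant libraries, and most of it was *Foxn4*, with means of 286 and 269 CPM, so it says little of the other markers. Of the 6 measured markers for peripheral sensory and motor neurons, which also use POU4F and ISL factors, 2 passed the filter, with 1 called lower and 1, *Runx1*, called higher, and *Mnx1* was at 0 in all libraries. The part of these cells in the results was not tested.

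The genes whose pattern over the 4 libraries was most like that of the main factors were found by the Euclidean distance of log2 CPM, each gene centred on its mean, among genes of at least 5 CPM. Nearest to *Pou4f2* were *Pgm2l1* at a distance of 0.0290, *Ttll7* at 0.0552, *Apba2* at 0.0655, *Nfu1* and *Sybu*. Nearest to *Isl1* were *Ngfr* at 0.0363, *Dpp6* at 0.0589, *Gdap1* at 0.0594, *Tubb2a* and *Celf4*. *Pou4f1* had *Irx6* at 0.0584, *Gabbr2* at 0.115, *Klhl1* at 0.136, *Ly6h* and *Dusp26*. Among the 8 genes themselves, *Pou4f2* and *Barhl2* were the closest pair at 0.162, followed by *Pou4f1* and *Isl2* at 0.206. These distances over 4 libraries are a description, and all genes compared share the same libraries.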

How the data were processed

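Total RNA from E13.5 retinas was made into cDNA libraries and sequenced on an Illumina instrument by the authors. Reads were aligned to mm10 with TopHat2 (version 2.7.2 in the submitters' processing notes) and counted per gene with HTSeq. The deposited files hold raw counts per gene and the authors' normalized values, which per the submitters' notes involve DESeq and limma and lie on a log2 scale. The authors' Cuffdiff analysis needs aligned reads and was not repeated. The 5 summary entries of the count table, 74.0% to 75.0% of all entries and mostly reads not placed uniquely (54.6% to 58.0%), were left out.

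Counts were tested with edgeR 4.0.16 in R 4.3.3 (TMM factors, filterByExpr with a minimum count of 10, quasi-likelihood test), with Benjamini-Hochberg adjustment over 15762 genes. Genes were called at a minimum fold of 1.4 with a maximum adjusted p of 0.2. Ratios had 0.5 added to each count. The fit was tested on simulated counts. Exon lengths and positions are from GENCODE for GRCm38. Alternatives used DESeq2 1.42.0 and limma 3.58.1, other scaling, filters and thresholds, the replicate block and each library left out. Chi-square values averaged over genes, 46.7 between wildtype and 58.8 between mutant libraries, showed that no replicate pair was 1 library deposited again.

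Named were the 8 genes, *Atoh7*, *Nrf1* and *Sox11*, in each list that is not a marker list the 2 lowest and 2 highest called genes of at least 5 CPM, and the 5 genes nearest to *Pou4f2*, *Isl1* and *Pou4f1*. Others named, such as *Thy1*, *Lmo3*, the lower families and the markers, were chosen after their values were seen. A few genes that these rules name are not reported here. The genes and lists were chosen with earlier results of these data known.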

Additional observations from a re-analysis of the deposited data

How the results depend on the processing

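The 7 genes called lower were called lower under every alternative run, which were other scaling, filters, thresholds and tests, the replicate block, the authors' normalized values and each library left out. *Tbr1* was never called, and its log2 fold change lay between -0.44 and 0.23 with single libraries left out, being 0.22 without wildtype replicate 1 and 0.23 without mutant replicate 2. *Nrf1* turned to 0.0060 with upper-quartile factors, and the cause was not tested. Over all genes, 1268 were called lower and 2024 higher. With an adjusted p of at most 0.05 the counts were 1039 and 1445. A test against the 1.4-fold threshold (edgeR's glmTreat) at that same stricter adjusted p called 523 lower and 754 higher, and limma on the authors' normalized values called 723 and 945. *Lmo1* did not reach the adjusted p of 0.05 used with glmTreat (adjusted p = 0.0978, edgeR). The median of the T-box genes was 0.21 on the authors' normalized values. Whether same-numbered libraries of the genotypes share a litter or a batch is not known. Their deviations had a correlation of -0.0070, which rests on 2 libraries per genotype and cannot settle it. With the replicate block, 1256 genes were called lower and 1970 higher, and 7 of the 8 genes were called lower. With 2 libraries per genotype, and with *Tbr1* at 23 to 39 reads, small differences of low genes were not detectable.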
